A study of Homo sapiens with 9 samples.

Results

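The MEX3 genes MEX3A, MEX3B, MEX3C and MEX3D were compared between Huh7 cells with and without knockdown of KDM4C, a histone lysine demethylase. The members were the rows of the deposited expression lists with these symbols, 4 of 32906 listed genes, and all 4 passed the filter on low values, a group mean of 1 FPKM or more in any group, which left 14363 genes. MEX3D was picked because its level was higher with both siRNAs, so its difference from the control is a description with no test, while MEX3A, MEX3B and MEX3C entered as its relatives. Huh7 is an established human hepatocellular carcinoma line. The cells received a control siRNA (Scramble) or one of the siRNAs Si-KDM4C#1 and Si-KDM4C#2, and total RNA was taken after 48 hours. Each group had 3 libraries (9 in all), and every group was transfected, so the control shares the transfection but not the targeting siRNA. The knockdown was transient and the cells belong to 1 line. The labels do not say whether libraries of a group came from separate cultures, so p-values measure the spread between these libraries, which may be technical.

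MEX3 proteins are relatives of the worm translational repressor MEX-3. Each carries a pair of KH domains, which bind RNA, and a RING domain near its end, the fold of many ubiquitin ligases. They shuttle between nucleus and cytoplasm, and they are known for reducing the level or translation of bound mRNAs and for attaching ubiquitin to partner proteins. MEX3A has been tied to stem cells of the gut and to repression of the mRNA of CDX2, MEX3B to innate immune sensing and to Argonaute proteins, MEX3C to mRNA decay and to the RNA sensor RIG-I, and MEX3D, also known as TINO, to an AU-rich element of BCL2 mRNA.

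The MEX3 genes lie on different chromosomes, all on the minus strand (GRCh38, GENCODE release 29), and the coding transcript taken for each has 2 exons. MEX3D (ENSG00000181588) spans chr19:1554669-1568058 and its coding sequence holds 651 codons. MEX3C (ENSG00000176624) spans chr18:51174550-51218304, with 659 codons. MEX3B (ENSG00000183496) spans chr15:82041778-82046141, with 569 codons, and MEX3A (ENSG00000254726) spans chr1:156072013-156081998, with 520 codons. No annotated gene overlaps any of the 4. Reads of the paralogs were nearly always distinct, since 17 of the 2850 stretches of 31 bases in MEX3D exons also occur in MEX3C, and MEX3A and MEX3B share 0 such stretches with any other gene.

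The promoters of MEX3D and MEX3A are shown because these genes were the members with more mRNA under both siRNAs. The sequences are the 250 bases before the RefSeq start (GRCh38.p14, minus strand, chr19:1568326-1568575 and chr1:156082466-156082715), which lies upstream of the GENCODE 29 gene start in both cases. Capitals mark matches to the GC box GGGCGG, the CCAAT box CCAAT, the TATA box TATAAA, the half-site TGACGT of the cAMP response element and the E-box CACGTG, searched on both strands, and no marked match overlaps another.
MEX3D: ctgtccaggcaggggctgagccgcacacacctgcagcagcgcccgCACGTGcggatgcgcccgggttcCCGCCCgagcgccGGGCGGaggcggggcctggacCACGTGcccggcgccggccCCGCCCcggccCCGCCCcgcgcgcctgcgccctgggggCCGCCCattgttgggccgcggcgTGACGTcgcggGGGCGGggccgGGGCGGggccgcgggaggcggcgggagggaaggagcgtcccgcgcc
MEX3A: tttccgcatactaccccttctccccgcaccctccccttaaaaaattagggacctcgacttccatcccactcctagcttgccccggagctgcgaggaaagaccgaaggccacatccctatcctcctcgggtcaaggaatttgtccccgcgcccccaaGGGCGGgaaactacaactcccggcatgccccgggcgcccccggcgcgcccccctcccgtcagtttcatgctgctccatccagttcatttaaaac
The MEX3D sequence held 7 GC boxes, 2 E-boxes and 1 TGACGT half-site, and the MEX3A sequence held 1 GC box. Among the 35116 promoters of the same length, 42.6% held a GC box, 6.35% an E-box and 7.10% the half-site. Neither sequence held the CCAAT box (32% of promoters) or the TATA box (10.7%). G and C made up 84.0% of the MEX3D sequence and 60.8% of that of MEX3A. The MEX3D sequence held 41 CG dinucleotides, more than 98.3% of the promoters, and that of MEX3A held 17, against a median of 11. The windows of MEX3B and MEX3C held 22 and 15. Their RefSeq starts lie inside the GENCODE 29 genes, so the MEX3B window partly overlaps its gene and the MEX3C window lies within its gene. These matches describe letters in the window, and no binding was measured here.

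The total recovered from the values was 14597501 to 18058557 fragments per library, and 23277 to 25452 genes per library were above 0. A floor of 3 fragments equals 0.0721 FPKM or less for any member, and every MEX3 value lay above it. Such floors cover counting error only. The target of the siRNAs, KDM4C, was at 4.69 FPKM on average in the Scramble libraries, 1.14 under Si-KDM4C#1 and 0.287 under Si-KDM4C#2. Of 14 hepatocyte markers, ALB, APOB and TTR had no row in the deposited lists. No library reached 1 FPKM for any of the 11 listed ones, which include AFP and HNF4A. The same held for the 4 listed blood cell markers. The hepatocyte markers thus do not bear out a liver cell identity, and the name Huh7 is given as the labels state it. Of the 4 listed epithelial markers, KRT19 and CDH1 were under 1 FPKM in every library, and EPCAM was not listed. The 4 summed to 330.0 to 353.2 FPKM in Scramble libraries, 289.7 to 308.9 with Si-KDM4C#1 and 240.1 to 254.0 with Si-KDM4C#2. Nearly all of each sum was KRT8 and KRT18, at 199.5 and 140.5 FPKM on average in Scramble. The keratins went both ways with Si-KDM4C#1, where KRT8 fell by 0.52 and KRT18 rose by 0.21 on the log2 scale (adjusted p = 1.07e-06 and 0.00514, limma-trend), and both fell with Si-KDM4C#2. Mesenchymal markers summed to 75.6 to 83.2, 79.7 to 84.0 and 94.1 to 94.7 FPKM in the same order. Among these, FN1 was called lower with both siRNAs (-1.02 each), CDH2 rose by 0.61 with Si-KDM4C#1, and VIM, the most abundant, rose by 0.35 with Si-KDM4C#2. Their part in the MEX3 values was not tested, and in bulk RNA fewer cells with an mRNA and less of it per cell cannot be told apart.

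MEX3D, the member tied to BCL2 mRNA, was below MEX3C and above MEX3A and MEX3B in the control. After knockdown it was the most abundant MEX3 mRNA. Its level was 2.14, 2.47 and 3.03 FPKM in the 3 Scramble libraries. With Si-KDM4C#1 it was 18.9, 20.3 and 22.7 FPKM, and with Si-KDM4C#2 it was 15.7, 14.4 and 14.3 FPKM. FPKM stands for fragments per kilobase of exon, scaled to a fragment total for each library, which corrects for gene length and depth. The groups did not overlap: every knockdown library was far above every Scramble library, and every Si-KDM4C#1 library was above every Si-KDM4C#2 library. The share of all tested genes that separate in this way was not counted, so the separation only describes MEX3D. The Scramble mean was 2.55 ± 0.451 FPKM (SD, n = 3). The mean with Si-KDM4C#1, 20.6 ± 1.92 FPKM (SD, n = 3), was 8.1 times as high, and that with Si-KDM4C#2, 14.8 ± 0.781 FPKM (SD, n = 3), was 5.81 times as high. These means rest on 352, 2858 and 2026 recovered fragments over the 3 libraries of each group.

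On the log2(FPKM + 1) scale, where the added 1 shrinks the change of a weakly expressed gene, the difference of MEX3D from Scramble was 2.61 under Si-KDM4C#1 and 2.16 under Si-KDM4C#2, each with a standard error of 0.095 and no test. Ordered by the log2 fold change of all 14363 genes, MEX3D took rank 3 from the top with Si-KDM4C#1 and rank 5 with Si-KDM4C#2. By the smaller of its 2 changes it took rank 1. The median log2 fold change over all genes was -0.03 and 0.06. Genes called higher, with an FDR under 0.05 and a fold change over 2, made up 4.04% of the genes tested under Si-KDM4C#1 and 2.6% under Si-KDM4C#2. Since the choice of MEX3D used these contrasts, nothing is read from that background. Both comparisons use the same 3 Scramble libraries.

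The direct comparison of the siRNAs played no part in choosing MEX3D. On the log2 scale, Si-KDM4C#2 minus Si-KDM4C#1 came to -0.45 for MEX3D (95% interval -0.67 to -0.24, adjusted p = 0.00229 in limma-trend, adjusted by Benjamini-Hochberg over all genes), so the second siRNA left less MEX3D mRNA. The difference was within the 2-fold limit. KDM4C mRNA was also lower with Si-KDM4C#2 (0.287 against 1.14 FPKM on average). A link between the levels of KDM4C and MEX3D was not tested, and the KDM4C level cannot be told apart from the siRNA used. In the direct comparison of the siRNAs 35.9% of genes were higher and 26.5% lower at an FDR under 0.05.

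**Figure D1:**
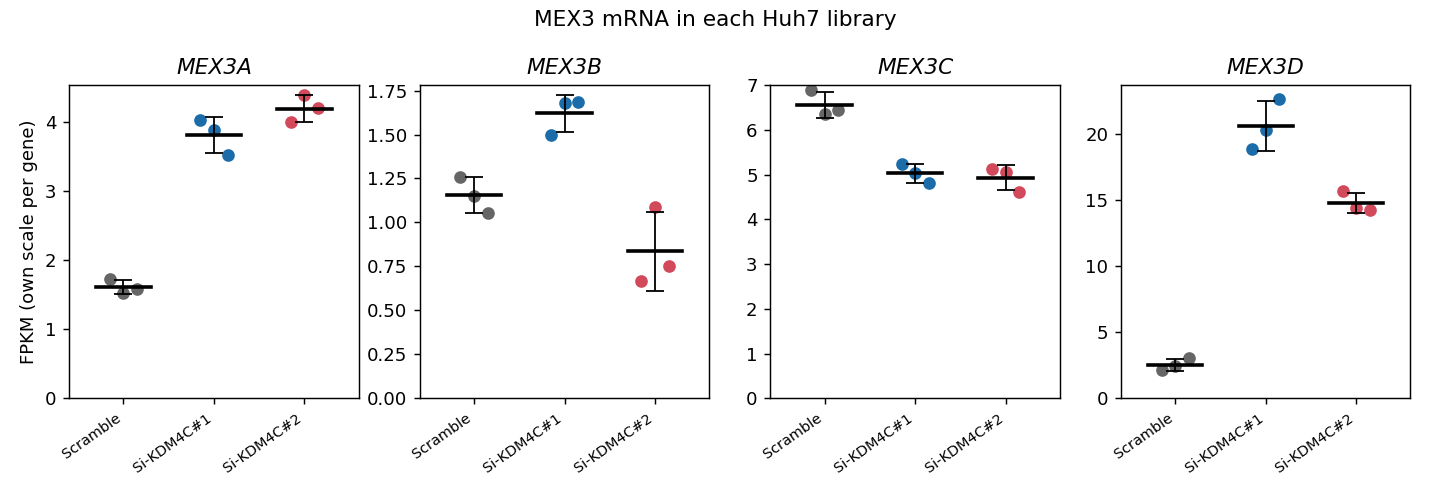
Level of each MEX3 mRNA in FPKM (linear vertical axis from 0, a separate scale for each gene) in the 9 libraries, grouped by siRNA on the horizontal axis. Points are libraries, horizontal lines are means and bars are SDs (n = 3): MEX3D runs from 2.14 to 3.03 in Scramble and from 14.3 to 22.7 after knockdown, and MEX3B is the gene whose Si-KDM4C#2 points overlap those of Scramble.

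MEX3A, whose protein is tied to CDX2 mRNA and gut stem cells, was also higher with both siRNAs. It was at 1.72, 1.52 and 1.58 FPKM in Scramble, 4.02, 3.88 and 3.52 FPKM with Si-KDM4C#1, and 3.99, 4.39 and 4.20 FPKM with Si-KDM4C#2. No knockdown library overlapped a Scramble library, while the groups of the siRNAs overlapped each other. How many of all tested genes separate from Scramble like this was not counted, so it is not read as particular to MEX3A. The means were 1.61 ± 0.102 FPKM (SD, n = 3), 3.81 ± 0.262 FPKM (SD, n = 3) and 4.19 ± 0.197 FPKM (SD, n = 3), or 2.37 and 2.61 times the control, from 473, 1138 and 1236 fragments.

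MEX3A rose by 0.88 on the log2 scale under Si-KDM4C#1 (adjusted p = 1.99e-06, limma-trend) and by 0.99 under Si-KDM4C#2 (adjusted p = 1.65e-06), with standard errors of 0.066. At an FDR under 0.05, 31.7% of genes were higher under Si-KDM4C#1 and 34.4% under Si-KDM4C#2. By size of change, MEX3A took rank 836 and rank 390 of the 14363 genes. Both values lie just inside the 2-fold limit on the log2(FPKM + 1) scale, so MEX3A was not called with either siRNA, although its FPKM ratios exceed 2. With limma voom on recovered fragments, which does not add 1 to the FPKM values, the changes were 1.31 and 1.32 and past the limit. The 6 knockdown libraries were higher than each of the 3 controls, for which an exact permutation test (two-sided, 84 splits) gave its smallest possible p, 0.0119, or 0.0179 adjusted over MEX3A, MEX3B and MEX3C. The siRNAs differed by 0.11 (95% interval -0.04 to 0.26, adjusted p = 0.164, limma-trend).

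MEX3C, whose protein promotes mRNA decay, moved the other way. It was the most abundant MEX3 mRNA of the control, at 6.89, 6.35 and 6.44 FPKM. With Si-KDM4C#1 it was at 5.23, 5.04 and 4.82 FPKM, and with Si-KDM4C#2 at 5.12, 5.06 and 4.61 FPKM. Every knockdown library was below every Scramble library, and the groups of the siRNAs overlapped. Here too the share of all tested genes with such a separation was not counted, so it is not read as particular to MEX3C. The means were 6.56 ± 0.290 FPKM (SD, n = 3), 5.03 ± 0.205 FPKM (SD, n = 3) and 4.93 ± 0.281 FPKM (SD, n = 3), or 0.767 and 0.752 times the control, from 2358, 1835 and 1771 fragments.

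MEX3C fell by 0.33 on the log2 scale under Si-KDM4C#1 (adjusted p = 0.000573, limma-trend) and by 0.35 under Si-KDM4C#2 (adjusted p = 0.000464), with standard errors of 0.056. At an FDR under 0.05, 33.9% of genes were lower under Si-KDM4C#1 and 25.0% under Si-KDM4C#2, and 4.83% and 2.3% also passed the 2-fold limit, which MEX3C did not. The 6 knockdown libraries were lower than each of the 3 controls. For this separation the same exact permutation test gave its smallest possible p, 0.0119 (0.0179 adjusted over MEX3A, MEX3B and MEX3C). The siRNAs differed by -0.02 (95% interval -0.15 to 0.10, adjusted p = 0.727, limma-trend).

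MEX3B, tied to innate immune sensing, was the least abundant member. Its level was lower with Si-KDM4C#2 than with Si-KDM4C#1, and only that difference passed in all alternatives that gave a value. It was at 1.26, 1.15 and 1.06 FPKM in Scramble, 1.5, 1.68 and 1.68 FPKM with Si-KDM4C#1, and 0.665, 1.09 and 0.752 FPKM with Si-KDM4C#2. The Si-KDM4C#1 libraries were above all others, while the highest Si-KDM4C#2 library fell within the Scramble range. How common such an order is among all tested genes was not counted. The means were 1.16 ± 0.102 FPKM (SD, n = 3), 1.62 ± 0.106 FPKM (SD, n = 3) and 0.836 ± 0.224 FPKM (SD, n = 3). They rest on 242, 343 and 175 fragments, the fewest of the family.

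MEX3B rose by 0.28 on the log2 scale under Si-KDM4C#1 (adjusted p = 0.0439, limma-trend, standard error 0.108). This is a pass of the FDR limit only, within the 2-fold limit. The pass was lost in 7 of the 9 fits that left out 1 library (adjusted p up to 0.115). It was also lost after adjustment for GC content (0.18, adjusted p = 0.162), at a pseudocount of 0.1 (0.45, adjusted p = 0.0632), without the filter (adjusted p = 0.102) and with a replicate block (adjusted p = 0.058). It was kept with a larger value by quantile normalization (0.44, adjusted p = 0.00432) and voom (0.55, adjusted p = 0.00607, both in limma). Under Si-KDM4C#2 it was at -0.24 (95% interval -0.48 to 0.01, adjusted p = 0.0853), which did not pass. It passed without Si-KDM4C#2 replicate 2 (-0.34, adjusted p = 0.0243), after adjustment for GC content (-0.38, adjusted p = 0.0131) and with voom (-0.56, adjusted p = 0.0191). The difference between the siRNAs passed, at -0.52 (95% interval -0.76 to -0.28, adjusted p = 0.00223, limma-trend), and it passed in all 18 alternatives that gave a value. Over both siRNAs the exact two-sided permutation test against Scramble gave p = 0.929, with 3 knockdown libraries above and 2 below the Scramble range. A permutation test of 3 libraries against 3 cannot go below an exact p of 0.1.

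**Figure D2:**
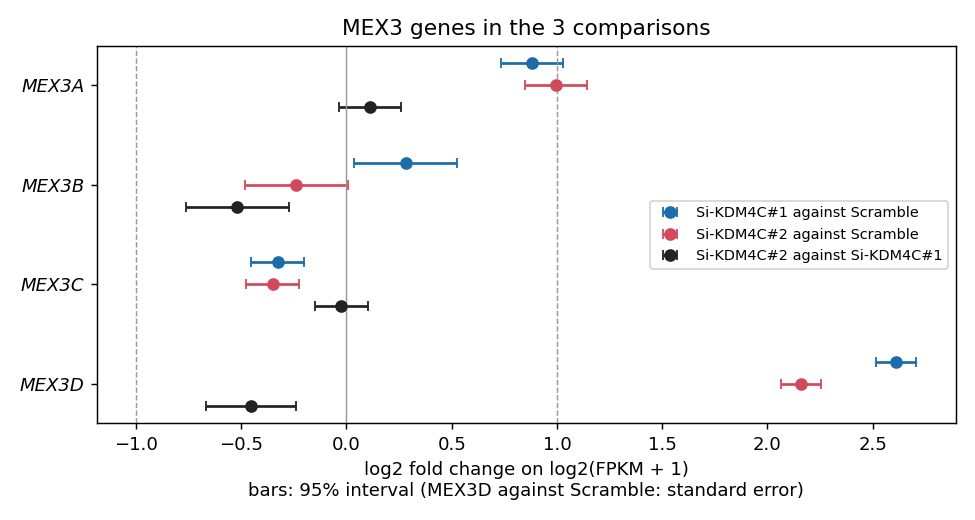
Log2 fold change on log2(FPKM + 1) of each MEX3 gene for Si-KDM4C#1 against Scramble (blue), Si-KDM4C#2 against Scramble (red) and Si-KDM4C#2 against Si-KDM4C#1 (black), from the limma-trend fit. Bars are 95% intervals, unadjusted, except for MEX3D against Scramble, where they are standard errors, and dashed lines mark the 2-fold limit: MEX3D lies at 2.61 and 2.16, MEX3A just under 1, MEX3C at -0.33 and -0.35, and MEX3B on both sides of 0.

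The sum of MEX3 mRNA and its make-up are descriptions that carry the choice of MEX3D, which was picked for its higher level. FPKM values, being per length, were added over the members and gave 11.9 ± 0.329 (SD, n = 3) in Scramble. The sum was 31.1 ± 1.54 (SD, n = 3) under Si-KDM4C#1 and 24.7 ± 0.837 (SD, n = 3) under Si-KDM4C#2. Without MEX3D the sums were 9.32 ± 0.475 (SD, n = 3) in Scramble, 10.4 ± 0.386 (SD, n = 3) and 9.96 ± 0.511 (SD, n = 3). The Si-KDM4C#1 libraries lay just above the Scramble range, and those with Si-KDM4C#2 overlapped it. In Scramble libraries MEX3C held 55.3% ± 2.1 (SD, n = 3) of the sum and MEX3D 21.5% ± 3.62 (SD, n = 3). With Si-KDM4C#1 the share of MEX3D was 66.3% ± 2.86 (SD, n = 3) and that of MEX3C 16.2% ± 1.45 (SD, n = 3). With Si-KDM4C#2 MEX3D held 59.7% ± 1.92 (SD, n = 3) and MEX3C 19.9% ± 0.507 (SD, n = 3). The share of MEX3A was 13.5% ± 0.680 (SD, n = 3), 12.3% ± 1.43 (SD, n = 3) and 17.0% ± 1.11 (SD, n = 3). The share of MEX3B went from 9.75% to 5.21% and 3.38%.

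The order of levels in the control was MEX3C, MEX3D, MEX3A and MEX3B. With each siRNA it was MEX3D, MEX3C, MEX3A and MEX3B. In no group did neighbours in this order overlap between libraries. MEX3D and MEX3C thus changed places, and the lower pair kept its order.

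**Figure D3:**
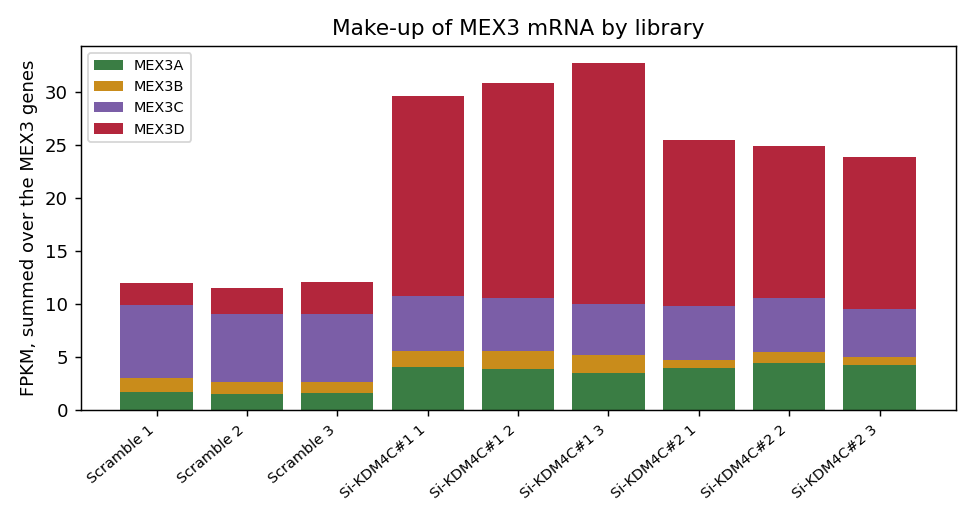
FPKM of the MEX3 mRNAs stacked in each of the 9 libraries (vertical axis in FPKM from 0, horizontal axis the group and replicate number). The sum is 11.5 to 12.1 in Scramble, 29.7 to 32.7 with Si-KDM4C#1 and 23.8 to 25.5 with Si-KDM4C#2, and the red MEX3D segment is the largest of every knockdown bar.

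The GC content of transcripts moved with the changes over all genes, and the members differ in it. GC content was taken from the longest transcript of each gene. MEX3D, at 67.2%, belongs to the tenth of genes richest in GC. There the median log2 fold change was 0.30 under Si-KDM4C#1 and 0.36 under Si-KDM4C#2, and 11.3% and 7.25% of genes were called higher. In the tenth poorest in GC the medians were -0.29 and -0.13. MEX3A (53.9% GC, decile 7) has neighbours in GC with medians of 0.08 and 0.11. MEX3C (41.6%, decile 3) has neighbours with medians of -0.18 and -0.06, and MEX3B (55.9%, decile 8) has neighbours with medians of 0.11 and 0.17. With each library adjusted for GC content, MEX3D was at 2.34 and 1.80 and MEX3A at 0.81 and 0.88. MEX3C was at -0.15 (adjusted p = 0.0403, limma-trend) with Si-KDM4C#1, against -0.33 unadjusted, and at -0.28 with Si-KDM4C#2. The part of GC content in the remaining values was not tested.

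**Figure D4:**
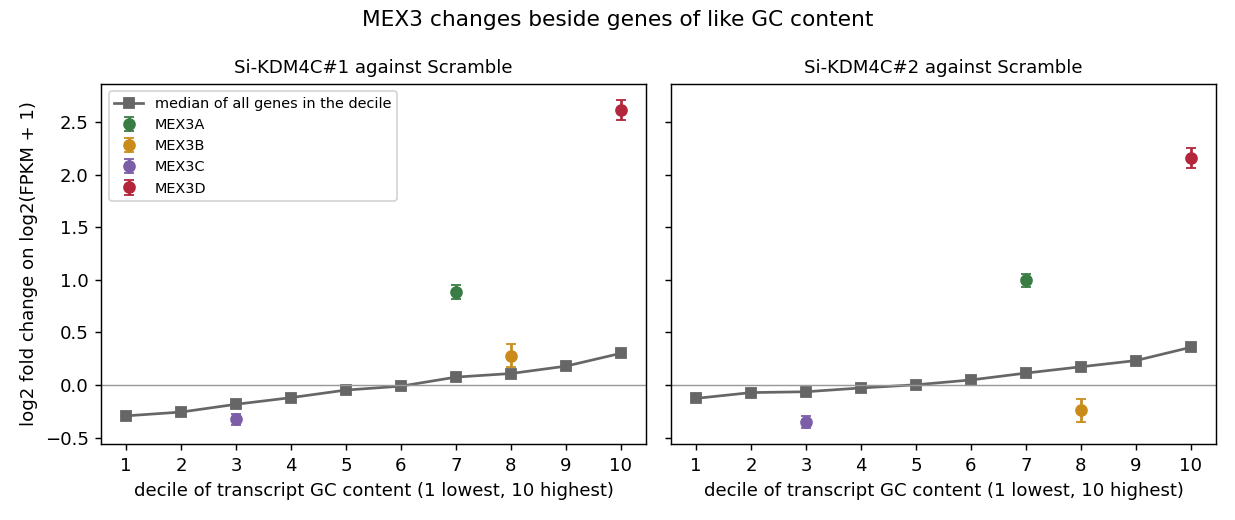
Log2 fold change on log2(FPKM + 1) against Scramble of the MEX3 genes (coloured points with standard errors), for each siRNA in its own panel. Grey squares are medians of all tested genes with annotated GC content, by decile of the GC content of the longest transcript. The medians climb from -0.29 to 0.30 under Si-KDM4C#1 and, under Si-KDM4C#2, from -0.13 to 0.36, and MEX3D and MEX3A stand above the median of their decile in both panels.

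Transcripts and proteins that MEX3 proteins have been reported to bind or regulate were taken as a list of 14 genes, of which 13 were listed and 10 passed the filter. CDX2, TLR3 and LGR5 were under it. With Si-KDM4C#1, 4 of the 10 rose, 4 fell and 2 did not pass the test (median log2 fold change -0.07, against -0.03 over all genes). With Si-KDM4C#2, 3 rose, 4 fell and 3 did not pass (median -0.11, against 0.06). Over all genes tested, 31.7% rose and 33.9% fell with the first siRNA, and 34.4% rose and 25.0% fell with the second, so the counts of this list lie near that background. None passed the 2-fold limit with either siRNA in limma-trend, and 0 to 2 did so over the other alternatives.

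BCL2, the apoptosis inhibitor whose mRNA MEX3D is reported to bind, was at 1.31 FPKM on average in Scramble, 1.25 under Si-KDM4C#1 and 1.18 under Si-KDM4C#2. The libraries of the groups overlapped. Its log2 fold changes were -0.04 (95% interval -0.25 to 0.17, adjusted p = 0.726, limma-trend) and -0.08 (95% interval -0.29 to 0.12, adjusted p = 0.457), so no difference was detectable at this precision.

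HLA-B and HLA-C, which present peptides to T cells, were lower with both siRNAs. HLA-B was at 44.5 FPKM on average in Scramble, 29.9 under Si-KDM4C#1 and 33.2 under Si-KDM4C#2. It fell by 0.56 and by 0.41 on the log2 scale (adjusted p = 2.58e-05 and 0.000269, limma-trend, standard error 0.060). HLA-C fell by 0.20 and by 0.14 (adjusted p = 0.00456 and 0.0344, limma-trend). Reads of these genes are hard to place among alleles and paralogs, so their split is uncertain.

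RUNX3, a transcription factor, rose by 0.22 and 0.47 (adjusted p = 0.0206 and 0.000339, limma-trend). RAP2A, a small GTPase, rose with Si-KDM4C#1 (0.23, adjusted p = 0.00433) and was at 0.08 with Si-KDM4C#2 (adjusted p = 0.237).

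The partners in RNA sensing and decay differed between the siRNAs. DDX58, which encodes the viral RNA sensor RIG-I, was at 7.05 to 7.30 FPKM in Scramble, 2.92 to 3.89 FPKM with Si-KDM4C#1 and 8.34 to 8.48 FPKM with Si-KDM4C#2. It fell by 0.91 with Si-KDM4C#1 (adjusted p = 3.37e-06, limma-trend), rose by 0.20 with Si-KDM4C#2 (adjusted p = 0.0366), and the difference of 1.11 between the siRNAs passed both limits (adjusted p = 1.17e-06). DDX58 was the only listed target to pass them there, where 4.41% of all genes were called higher and 2.49% lower. No listed target was called there with quantile normalization or the GC adjustment. CNOT7, a deadenylase subunit that MEX3C is reported to recruit, fell by 0.70 with Si-KDM4C#1 (adjusted p = 2.24e-06) and was at -0.13 with Si-KDM4C#2 (adjusted p = 0.0566). DCP1A, a cofactor of mRNA decapping, rose by 0.62 with Si-KDM4C#1 and fell by 0.14 with Si-KDM4C#2 (adjusted p = 0.0305). AGO1, which carries microRNAs, rose by 0.37 and fell by 0.23 in the same order. AGO2 was at -0.11 with Si-KDM4C#1 (adjusted p = 0.195) and rose by 0.27 with Si-KDM4C#2 (adjusted p = 0.00775).

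**Figure D5:**
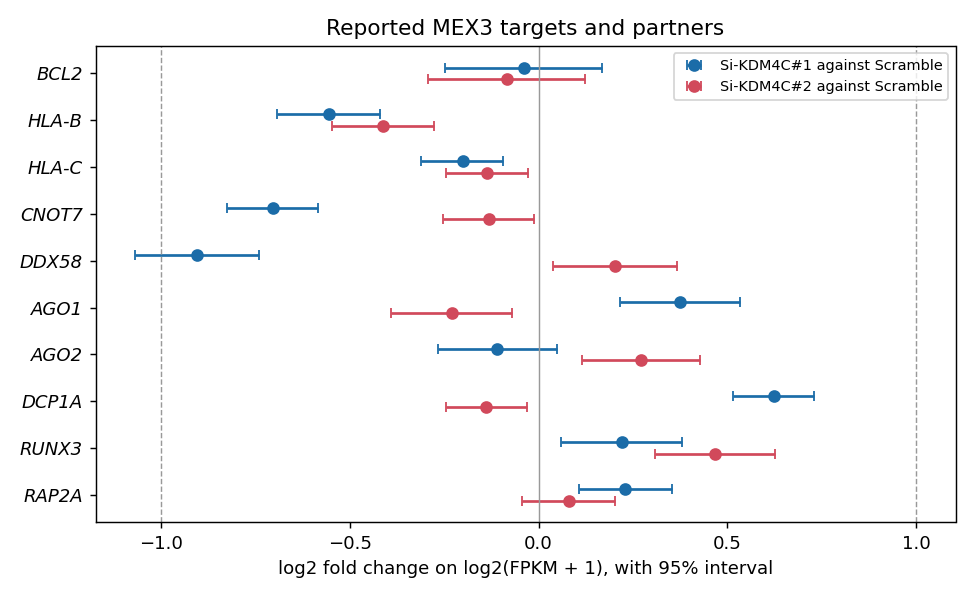
Log2 fold change on log2(FPKM + 1) against Scramble of the 10 tested genes reported as MEX3 targets or partners, for Si-KDM4C#1 (blue) and Si-KDM4C#2 (red), with unadjusted 95% intervals and dashed lines at the 2-fold limit. HLA-B lies at -0.56 and -0.41, BCL2 near 0, and DDX58 at -0.91 and 0.20.

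Other genes of the machinery in which MEX3 proteins act were counted in lists, some of which share genes (CNOT7, CNOT4, DCP1A and KHSRP stand in more than one). Their counts and medians are read against the shares of all genes given above (31.7% up and 33.9% down for Si-KDM4C#1, 34.4% and 25.0% for Si-KDM4C#2) and the medians of all genes (-0.03 and 0.06). Of 15 genes of the CCR4-NOT complex and its adaptors, which shorten poly(A) tails, 4 rose and 9 fell with Si-KDM4C#1 (median -0.19), and 3 rose and 5 fell with Si-KDM4C#2 (median -0.11). The 9 that fell with Si-KDM4C#1 are a larger share than among all genes, and the 3 that rose with Si-KDM4C#2 a smaller one, with no test of either. BTG2, an antiproliferative adaptor of the complex, was called with Si-KDM4C#1, from 10.9 to 28.7 FPKM on average (1.31, adjusted p = 1.09e-07, limma-trend), and rose by 0.65 with Si-KDM4C#2. TOB1, a related adaptor, was called lower with Si-KDM4C#2, from 72.6 to 34.7 FPKM (-1.04, adjusted p = 5.45e-08), and fell by 0.74 with Si-KDM4C#1. After the GC adjustment no gene of this list was called with Si-KDM4C#2.

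Of 22 tested genes for mRNA decay and AU-rich element binding, 12 rose and 7 fell with Si-KDM4C#1 (median 0.27), and 10 rose and 5 fell with Si-KDM4C#2 (median 0.13). The shares that rose are above those of all genes, with no test, and the shares that fell are near them. DCP2, the decapping enzyme, was called with Si-KDM4C#2, from 2.84 to 8.13 FPKM (1.25, adjusted p = 5.73e-07, limma-trend). With Si-KDM4C#1 it was at 3.41 FPKM (0.20, adjusted p = 0.0291).

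Of 11 tested other ubiquitin ligases that bind RNA, 5 rose and 2 fell with Si-KDM4C#1 (median 0.02), and 3 rose and 4 fell with Si-KDM4C#2 (median -0.13). These are small counts, and those with Si-KDM4C#2 lie near the background. ZNF598, which marks collided ribosomes, was at 11.5 FPKM in Scramble, 32.2 under Si-KDM4C#1 and 21.6 under Si-KDM4C#2. It was called with Si-KDM4C#1 (1.41, adjusted p = 2.93e-07, limma-trend) and rose by 0.86 with Si-KDM4C#2. RC3H2, a roquin that binds stem-loops of decaying mRNAs, was called lower with Si-KDM4C#1 (-1.23, adjusted p = 8.24e-08) and fell by 0.48 with Si-KDM4C#2. After the GC adjustment no gene of this list was called lower with Si-KDM4C#1.

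Of 23 tested other proteins with KH domains, 6 rose and 8 fell with Si-KDM4C#1 (median 0.02), and 12 rose and 5 fell with Si-KDM4C#2 (median 0.20). The 12 that rose with Si-KDM4C#2 are a larger share than among all genes, with no test. The shares that fell lie near the background with both siRNAs. None was called against Scramble with either siRNA in limma-trend, and 0 or 1 was over the other alternatives. KHSRP and FXR1 were called between the siRNAs, and they are named after their values were seen. KHSRP, which promotes decay of AU-rich mRNAs, rose by 0.67 with Si-KDM4C#1 and fell by 0.87 with Si-KDM4C#2. FXR1, a relative of the fragile X protein, fell by 0.83 and rose by 0.32.

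The neighbours of MEX3D on chromosome 19 did not share one pattern. MBD3, a subunit of the NuRD repressor complex and the nearest expressed gene upstream (5537 bases away), was at 0.17 with Si-KDM4C#1 (adjusted p = 0.0736, limma-trend) and rose by 0.61 with Si-KDM4C#2 (adjusted p = 8.97e-05). UQCR11, a respiratory chain subunit, rose by 0.28 and 0.29. TCF3, a transcription factor of the E protein family that lies 41231 bases away, was at 6.27 ± 0.628 FPKM (SD, n = 3) in the controls, 24.6 ± 1.53 FPKM (SD, n = 3) under Si-KDM4C#1 and 24.2 ± 1.01 FPKM (SD, n = 3) under Si-KDM4C#2. It was the only neighbour of the 6 to be called, with both siRNAs (1.82 and 1.80, adjusted p = 3.62e-08 and 7.78e-08, limma-trend).

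On the downstream side, ADAMTSL5, a secreted matrix protein, rose by 0.60 and 0.63. REEP6, an endoplasmic reticulum protein, fell by 0.46 with Si-KDM4C#1 (adjusted p = 0.000146, limma-trend) and was at 0.06 with Si-KDM4C#2 (adjusted p = 0.45). AC027307.1 was at 0.29 and 0.39 and did not pass (adjusted p = 0.291 and 0.177). It overlaps ADAMTSL5 on the opposite strand, and the strand setting of the counting is not given in the sources used here.

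The genes whose log2(FPKM + 1) values were most like those of MEX3D across the 9 libraries were NENF, TUBB, RGS2, C9orf78 and ECI1, with Pearson correlations of 0.997 each. These libraries share 3 groups, so such values mostly describe the group means. RGS2, a regulator of G protein signalling, was at 9.51 to 11.7 FPKM in Scramble, 38.2 to 41.8 FPKM with Si-KDM4C#1 and 30.6 to 30.9 FPKM with Si-KDM4C#2, and thus in the same order as MEX3D. TUBB, a beta-tubulin, was at 258.8 to 273.5, 515.2 to 560.8 and 484.5 to 501.2 FPKM, with near-identical relatives that make its reads less certain. Of the relatives, MEX3A had a correlation of 0.945 with MEX3D (place 742), MEX3B 0.180 (place 6092) and MEX3C -0.942 (place 13855).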

How the data were processed

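Paired-end Illumina NovaSeq reads were made from 9 Huh7 libraries, 3 each with Scramble, Si-KDM4C#1 or Si-KDM4C#2. For each library the authors deposited a list of genes with FPKM values. The submitters' processing notes name the build GRCh38 and the tools FastQC 0.11.5, HISAT2 2.1.0, StringTie 1.3.3b, featureCounts and DESeq 1.28.0, with no role for each. The annotation used is not given in the sources used here. With GENCODE release 29 exon lengths, 97.54% to 97.68% of the non-zero values per library were whole fragments (within 0.05), which gave the depth.

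Genes whose mean reached 1 FPKM in any group were compared on log2(FPKM + 1) with limma-trend (limma 3.58.1, R 4.3.3), all 9 libraries in 1 fit, no covariates and Benjamini-Hochberg adjustment over all genes. "Rose" and "fell" stand for an FDR under 0.05, and "called" also for a fold change over 2. Exact permutation tests, promoters and plots were done with Python 3.11.15, scipy 1.17.1, pandas 2.3.3, numpy 2.4.6 and matplotlib 3.10.9. The fit was tested on simulated data. The alternatives were a pseudocount of 0.1, 2 other filters, quantile and median-ratio scaling, a lowess adjustment for GC content (span 0.3), voom on recovered fragments, only the 6 libraries of a comparison, a replicate block and leaving out each library.

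The members and lists were chosen with earlier results of these data known. Named were the MEX3 genes and KDM4C, all tested listed targets, in other lists the genes called with either siRNA (at most 4 a list), the 3 nearest expressed genes on each side of MEX3D and the 5 genes most correlated with it. KHSRP, FXR1 and the named cell type markers other than FN1 fall outside this rule. Target and partner genes were listed from general knowledge of the family, and some of them are not reported here and were left out of the counts. Promoter sequences are from RefSeq. Protein sequences were not used here.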

Additional observations from a re-analysis of the deposited data

Results flagged for a closer look

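MEX3D and MEX3B drew attention because the effects of the siRNAs differed from each other in a direct test. For MEX3D, Si-KDM4C#2 minus Si-KDM4C#1 came to -0.45 on the log2 scale (adjusted p = 0.00229, limma-trend), with all 3 Si-KDM4C#2 libraries below all 3 Si-KDM4C#1 libraries. For MEX3B it came to -0.52 (adjusted p = 0.00223, limma-trend), again with all 3 libraries of Si-KDM4C#2 below those of Si-KDM4C#1. In the same comparison 26.5% of all genes were lower at an FDR under 0.05. The share of all genes whose libraries separate between the siRNAs was not counted.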

How the results depend on the processing

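The increase of MEX3A and the decrease of MEX3C against Scramble passed an FDR of 0.05 with each siRNA in all 19 alternatives, and the difference of MEX3D between the siRNAs did so in all 19. MEX3A passed the 2-fold limit with Si-KDM4C#1 at a pseudocount of 0.1 (1.19), with quantile normalization (1.01) and with voom (1.31), and with Si-KDM4C#2 at a pseudocount of 0.1 (1.33), with voom (1.32) and when Scramble replicate 1 (1.02) or Si-KDM4C#2 replicate 1 (1.02) was left out (range over left-out libraries 0.97 to 1.02). MEX3B between the siRNAs passed the limit with voom (-1.10). The small differences between the siRNAs changed sign for MEX3A with quantile normalization (-0.015) and for MEX3C without Si-KDM4C#2 replicate 3 (0.016, range over left-out libraries -0.049 to 0.016). MEX3D with Si-KDM4C#1 was 2.98 at a pseudocount of 0.1, 3.08 with voom and 2.34 with the GC adjustment (2.34 with the replicate block added), and with Si-KDM4C#2 it was 2.51, 2.48 and 1.80 (1.80 with the block). Genes called numbered 1274, 703 and 992 for Si-KDM4C#1, Si-KDM4C#2 and the difference between them, against 2302, 1443 and 1937 at a pseudocount of 0.1 and 3023, 1993 and 2566 with voom. The split of the 703 calls was 373 higher and 330 lower, against 293 and 385 with median-ratio scaling and 255 and 362 with the GC adjustment. The split of the 992 calls was 634 and 358, against 458 and 406 with quantile normalization. Median-ratio scaling gave 497 and 450, and the GC adjustment 496 and 449. MEX3B had no value under a filter of at least 1 FPKM in every library. Of the other values of the lists, 259 stayed near the reported one and 26, all counts of calls between 0 and 4, moved. The causes were not tested. The changes of MEX3B rest on 45 to 118 fragments per library, which limits their precision.

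The replicate numbers in the labels were checked for pairing. Deviations of same-numbered libraries from their group means had a mean correlation of 0.016 (-0.046 to 0.055, 9 pairs), against -0.008 for other pairs, so the numbers were not taken to pair libraries. With the replicate number as a block, MEX3B with Si-KDM4C#1 had an adjusted p of 0.058 (limma-trend) and no longer passed. No other tested MEX3 difference changed sides of the FDR limit, and 1273, 703 and 992 genes were called.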
